A study of Mus musculus with 6 samples.

Results

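The gp130 cytokine and STAT3 pathway was followed here through 9 genes in collecting duct cells of WT mice and of ADPKD mice with or without MMPP treatment. The genes were taken by symbol, from a list that was set with earlier results of these data known. These were the ligands *Lif* and *Clcf1*, receptors *Il6st*, *Lifr* and *Osmr*, kinases *Jak1* and *Jak2*, transcription factor *Stat3* and inhibitor *Socs3*. All 9 were found among the 55367 gene symbols of each library, and all 9 were among the 14862 genes with enough expression to be tested.

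RNA-seq was performed on polyA RNA of kidney cells captured with DBA, a plant lectin that binds collecting duct epithelium, after enzymatic digestion of the kidney, with 2 libraries in each of 3 groups, all at the Day115 time point of the labels. The WT mice were *Pkd1*+/+ and received saline, the ADPKD mice were *Pkd1*-/- and received saline, and the ADPKD+MMPP mice were *Pkd1*-/- and received MMPP, an ultra-small melanin-like nanoparticle that chelates Mn2+ and is coated with PEG, by repeated intravenous injection over about 2 months. The model was *Pkd1* fl/fl;Cre/Esr1+, in which tamoxifen given to young male mice activates the Cre recombinase. The methods do not name the promoter that drives Cre, nor do the labels say whether replicates came from separate mice, so the p-values measure only the spread between these libraries. The labels call the cells kidney tubular epithelial cells, and 1 sentence of the library protocol refers to whole kidney RNA.

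Cytokines of the IL-6 family signal through gp130, the product of *Il6st*, which pairs with another chain such as LIFR or OSMR once a ligand is bound. JAK kinases held by the receptor then phosphorylate STAT3, which moves to the nucleus and switches on target genes, and SOCS3 closes the loop by binding gp130 and JAK and ending the signal. STAT3 activity has been described in cyst-lining epithelium of polycystic kidneys, and LIF and OSM are known to act on kidney tubule cells during injury. RNA levels do not show phosphorylation, which was not measured in these libraries.

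*Pkd1* had 17.7 and 17.2 FPKM in WT, 7.64 and 8.91 in ADPKD, and 4.34 and 3.99 in ADPKD+MMPP, so that ADPKD cells kept 47.3% of the WT level. FPKM counts the fragments of a gene per kilobase of its length and for a library of fixed size. *Aqp2*, the water channel of principal cells, was abundant in every library, from 677 to 3555 FPKM, while *Avpr2*, the vasopressin receptor of the same cells, was at or near 0 in all 6, with 81.3% of its exon bases in another annotated gene. *Nphs1* of podocytes reached 98.7 FPKM in a WT library, and *Pecam1* of endothelium reached 146, so RNA of other kidney cells was present. The depth read from the steps between low values was 30.6 to 33.1 M reads in WT and ADPKD and 10.9 to 11.8 M reads in ADPKD+MMPP. Odd read numbers made up 35.8% to 37.8% of low values in the former and 7.44% to 7.91% in the latter. This difference in the values belongs to 1 condition only and cannot be told apart from the treatment.

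In ADPKD against WT, ligand and receptor transcripts went opposite ways. Both ligands were higher, *Lif* about 11.3-fold and *Clcf1* about 3.16-fold, while *Osmr* was 1.58-fold lower and *Lifr* fell to 0.334 of its WT level. *Socs3* was 3.22-fold lower, and *Stat3*, *Jak1*, *Jak2* and *Il6st* were not called. A gene was called at a fold of at least 1.5 on the log2(FPKM + 1) scale and an unadjusted P under 0.05 in limma, which left 2 members higher, 3 lower and 4 without a call. Over all genes tested, 26.7% were called, 14.2% higher and 12.5% lower. WT and ADPKD did not overlap for 8 of the 9 members, and for 67% of all genes tested.

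**Figure D1:**
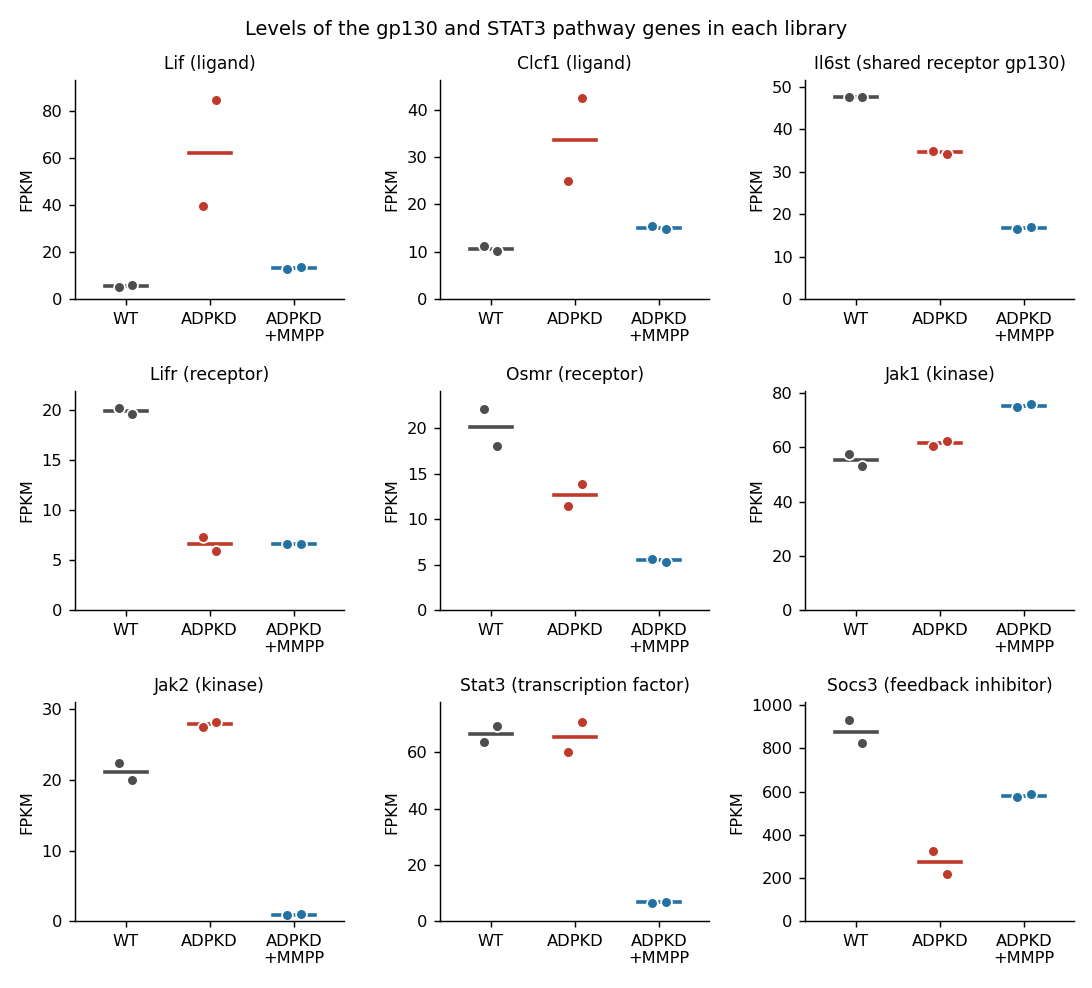
FPKM of each of the 9 genes (y axis, linear, from 0) in the WT, ADPKD and ADPKD+MMPP libraries (x axis). Points are the 2 libraries of a group and lines their mean. *Lif* and *Clcf1* were highest in ADPKD, *Socs3* lowest in ADPKD, and *Stat3* and *Jak2* were far lower in the treated libraries than in the other groups.

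*Lif* encodes leukemia inhibitory factor, which binds LIFR paired with gp130. The gene (ENSMUSG00000034394) lies on the plus strand of chromosome 11 from 4257557 to 4272514 in GRCm38. Its level was 5.08 and 5.92 FPKM in WT, 39.6 and 85.0 in ADPKD, and 12.9 and 13.5 in ADPKD+MMPP. The 3 groups did not overlap, and the ADPKD libraries differed most from each other. ADPKD exceeded WT by 3.19 on the log2 scale (standard error 0.34, adjusted p = 0.00427 in limma with Benjamini-Hochberg adjustment over all genes tested).

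*Clcf1* encodes cardiotrophin-like cytokine factor 1, a ligand that acts on the CNTF receptor with LIFR and gp130. The gene (ENSMUSG00000040663) lies on the plus strand of chromosome 19 from 4214238 to 4223490, and 8.17% of its exon bases are shared with another annotated gene. It was at 11.2 and 10.2 FPKM in WT, 24.9 and 42.5 in ADPKD, and 15.4 and 14.8 in ADPKD+MMPP. As for *Lif*, both ADPKD libraries lay above the 4 others and the second lay highest. The log2 fold change was 1.52 (standard error 0.25, limma adjusted p = 0.0108). In the ADPKD library with 85.0 FPKM of *Lif* and 42.5 of *Clcf1*, *Socs3* and *Lifr* were also at their lowest, at 218 and 5.97 FPKM.

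Of the receptor chains, *Lifr* and *Osmr* fell in ADPKD, by unequal amounts. *Lifr*, the receptor chain for LIF on chromosome 15 from 7090614 to 7197489 (plus strand), had 20.2 and 19.6 FPKM in WT, 7.32 and 5.97 in ADPKD, and 6.65 and 6.60 in ADPKD+MMPP. Against WT, the log2 fold change in ADPKD was -1.46 (standard error 0.13, limma adjusted p = 0.00338), with no overlap between these groups. *Osmr*, the oncostatin M receptor on the same chromosome from 6813577 to 6874969 (minus strand), had 22.1 and 18.0 FPKM in WT, 11.5 and 13.8 in ADPKD, and 5.66 and 5.31 in ADPKD+MMPP. Its change was -0.62 (standard error 0.16, limma adjusted p = 0.036), and this call was lost without the first WT library (-0.48) or the first ADPKD library (-0.50), which left the fold under 1.5.

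*Il6st*, which encodes gp130 and lies on chromosome 13 from 112464070 to 112510086 (plus strand), varied little between replicates. It had 47.4 and 47.6 FPKM in WT, 34.9 and 34.2 in ADPKD, and 16.5 and 17.0 in ADPKD+MMPP. The ADPKD libraries lay below the WT libraries, but the log2 fold change of -0.45 (standard error 0.11, limma adjusted p = 0.0321) was under the 1.5-fold threshold. Within a library, where scaling does not matter, *Lifr* stood at 0.426 and 0.412 times the FPKM of *Il6st* in WT and at 0.210 and 0.175 times in ADPKD. The same ratio was 0.402 and 0.388 in ADPKD+MMPP. Changes in the treated libraries followed transcript structure, described below, which differs between these genes. Ratios there are therefore not directly comparable with those of WT and ADPKD. Against ADPKD, *Lifr* and *Il6st* changed by -0.88 and -0.996 when centred by main transcript share, and by 0.35 and -0.35 by exon share. *Osmr* to *Il6st* gave 0.466 and 0.379 in WT, 0.330 and 0.405 in ADPKD, and 0.342 and 0.313 in ADPKD+MMPP, and here WT and ADPKD overlapped. With 2 libraries against 2, an exact permutation test on a single ratio cannot give a p below 0.333, so the ratios were not tested.

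The kinases and *Stat3* had similar levels in WT and ADPKD. *Jak1*, which binds gp130 and its partner chains, lies on chromosome 4 from 101152367 to 101265282 (minus strand) and had 57.6 and 53.3 FPKM in WT, 60.6 and 62.4 in ADPKD, and 74.8 and 75.8 in ADPKD+MMPP. Against WT, ADPKD gave a log2 fold change of 0.15 (95% interval -0.13 to 0.43, limma adjusted p = 0.377). *Jak2*, on chromosome 19 from 29251828 to 29313080 (plus strand), had 22.4 and 20.01 FPKM in WT, 27.5 and 28.2 in ADPKD, and 0.876 and 1.02 in ADPKD+MMPP. Its change of 0.38 in ADPKD against WT (95% interval 0.08 to 0.68, limma adjusted p = 0.0699) was under the fold threshold, although the libraries did not overlap.

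*Stat3* lies on chromosome 11 from 100885098 to 100939540 (minus strand) and has 14 annotated transcripts. It had 63.6 and 69.5 FPKM in WT and 60.1 and 71.0 in ADPKD, and was the member whose WT and ADPKD libraries overlapped. The log2 fold change was -0.02 (95% interval -0.36 to 0.31, limma adjusted p = 0.91), an interval that lies within 1.5-fold in either direction. The treated libraries had 6.68 and 6.91 FPKM.

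*Socs3* was the most abundant member in every library. It lies on chromosome 11 from 117966079 to 117970047 (minus strand) and had 930 and 824 FPKM in WT, 327 and 218 in ADPKD, and 574 and 589 in ADPKD+MMPP. No group overlapped another. Against WT, ADPKD gave a log2 fold change of -1.71 (standard error 0.21, limma adjusted p = 0.00536). The FPKM of *Socs3* was 14.6 and 11.9 times that of *Stat3* in WT and 5.44 and 3.08 times in ADPKD.

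Among the members, the order of mean FPKM in WT was *Socs3*, *Stat3*, *Jak1*, *Il6st*, *Jak2*, *Osmr*, *Lifr*, *Clcf1* and *Lif*. *Jak2*, *Osmr* and *Lifr*, between 18.0 and 22.4 FPKM, overlapped and could not be ordered. *Lif*, the lowest in WT, ranked 4 in the first ADPKD library and came behind only *Socs3* in the second. *Lifr* was the lowest of the 9 in both ADPKD libraries.

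**Figure D2:**
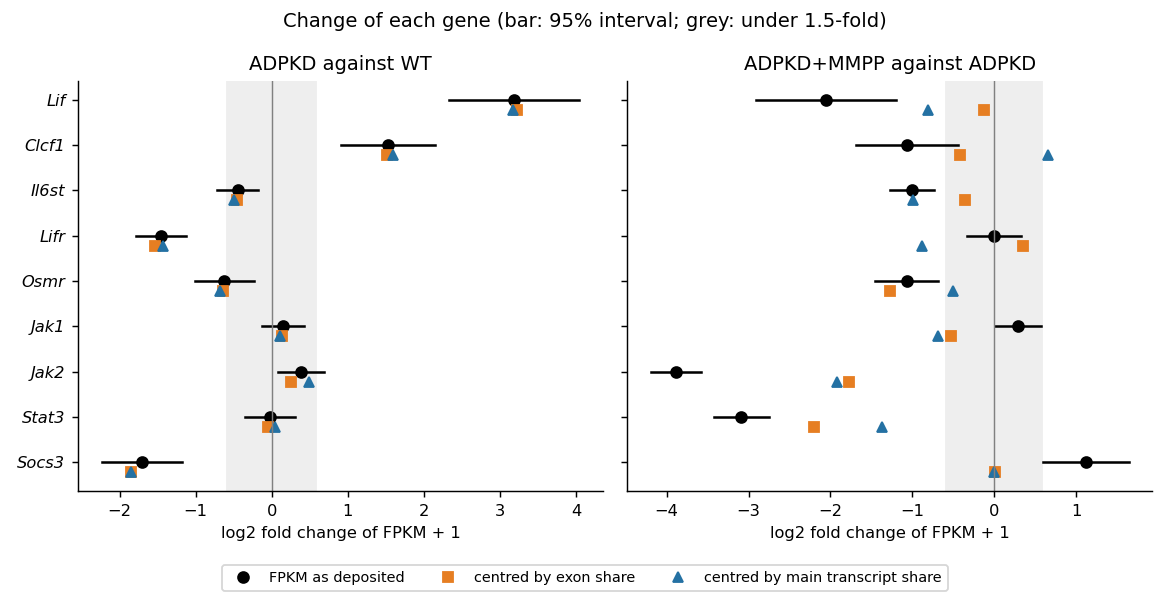
Log2 fold change of FPKM + 1 (x axis) of the 9 genes (y axis) in ADPKD against WT (left) and ADPKD+MMPP against ADPKD (right). Black points are the FPKM as deposited with the 95% interval of limma, orange squares and blue triangles are the values after each library was centred on genes of similar transcript structure, and grey marks changes under 1.5-fold. On the left the 3 values of each gene lie close together, and on the right they lie apart, with *Jak2* and *Stat3* below the grey band in all 3.

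The promoter of *Socs3* holds a STAT motif, and that of *Jak1* holds the cAMP response element bound by CREB. The paper proposes that MMPP acts on CREB as well as on oxidative stress. It names *Clcf1* as a CREB target and reports, by ChIP-qPCR, less phosphorylated CREB on *Clcf1* after MMPP. RefSeq promoter windows of GRCm38.p6, which run from 250 bases before to 50 after a start, were given for 8 members in 9 windows, 2 of them of *Lifr*, and *Clcf1* had none. The STAT motif TTCNNNGAA reads the same on both strands and was present in 8.3% of all 32851 windows. Among the members it occurred once, 154 bases before the start of *Socs3*. The full element TGACGTCA was present in 1.79% of windows and among the members once, 101 bases before the start of *Jak1*. Its core TGACG, which is contained in the full element, was found on either strand in 20.8% of windows and in no other member. The 250 bases before each of these starts are shown with the motif in capitals, *Socs3* from chr11:117969367-117969616 and *Jak1* from chr4:101265224-101265473, both on the minus strand. A match of letters is not evidence of binding, and distal elements were not searched.
Socs3: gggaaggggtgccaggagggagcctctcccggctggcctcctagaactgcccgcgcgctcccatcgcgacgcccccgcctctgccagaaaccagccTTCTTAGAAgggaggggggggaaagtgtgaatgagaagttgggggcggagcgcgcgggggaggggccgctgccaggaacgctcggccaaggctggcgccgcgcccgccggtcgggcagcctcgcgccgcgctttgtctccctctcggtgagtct
Jak1: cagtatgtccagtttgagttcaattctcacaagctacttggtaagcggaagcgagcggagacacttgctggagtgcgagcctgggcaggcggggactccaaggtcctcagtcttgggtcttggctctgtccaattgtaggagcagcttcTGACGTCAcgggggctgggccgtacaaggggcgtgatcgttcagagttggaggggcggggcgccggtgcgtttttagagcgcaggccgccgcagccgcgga

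Markers of several cell types moved with these changes. Beside the counts below, 14.2% of all genes tested were called higher and 12.5% lower. The summed FPKM of 11 leukocyte and macrophage markers was 69.0 and 67.3 in WT and 485 and 591 in ADPKD, with 8 of 10 tested markers higher and *Ptprc*, which encodes CD45, at 3.26 FPKM or less in every library. Of the fibroblast and pericyte markers 4 of 6 were higher and *Pdgfrb*, at 91.3 and 65.6 FPKM in WT, was lower (log2 fold change -1.12), with sums of 105 and 83.8 in WT and 152 and 171 in ADPKD. Sums were smaller for endothelium, from 933 and 775 to 515 and 514 (5 of 6 lower, *Plvap* higher by 0.92), for podocytes, from 872 and 1187 to 199 and 86.8 (4 of 4 lower), and for intercalated cells, from 223 and 233 to 50.7 and 22.6 (6 of 6 lower). Those of the thick limb and distal tubule went from 1270.3 and 501 to 600.1 and 176, with overlap (4 of 5 lower, 1 after adjustment). Those of the proximal tubule went from 593 and 513 to 1562 and 1429 (6 of 13 higher, 1 lower). Of this last sum, *Gpx3* alone had 378 and 396 FPKM in WT and 1274 and 1300 in ADPKD. The proximal tubule marker called lower was *Miox*, not after adjustment. Principal cell markers summed to 2534 and 3376 in WT and 4355 and 3308 in ADPKD (3 of 10 tested higher, none lower). The 3 were *Aqp4* (not after adjustment), *Krt18* and *Krt8*, the last at 227 and 316 FPKM in WT and 1187 and 1494 in ADPKD. The 7 others were lower in the second ADPKD library than in either WT library, but not in the first. *Aqp2* had 1267 and 1776 FPKM in WT and 1392 and 677 in ADPKD, and *Hsd11b2* had 357 and 433 against 432 and 56.4. Beside *Socs3*, itself an early response gene, 10 dissociation and immediate early genes summed to 8809 and 9496 FPKM in WT and 5661 and 4426 in ADPKD, and 6 of them were lower, *Fos* with a log2 fold change of -1.41. The part of these cells and of the immediate early genes in the results for the 9 genes was not tested, and in bulk RNA fewer cells of a type and less RNA per cell cannot be told apart.

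Of 9 other ligands of the family listed, 6 were tested. In ADPKD 5 were called higher and none lower, where 14.2% and 12.5% of all genes tested were. The median log2 fold change of these ligands was 1.41 against 0.03 over all genes tested. *Il6* had 35.2 and 20.1 FPKM in WT and 44.1 and 90.3 in ADPKD, without overlap, and its change of 1.21 (standard error 0.40) passed on the unadjusted P but not after adjustment (limma adjusted p = 0.0745). *Il11*, *Osm* and *Ebi3*, named here after their values were seen because they are among those called, stayed under 6 FPKM in both ADPKD libraries and were higher by 1.598, 1.89 and 0.71 on the log2 scale. *Osm* encodes the ligand of OSMR and stood at 0.302 and 0.114 FPKM in WT against 1.89 and 5.88 in ADPKD.

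Of 5 other receptors listed, 4 were tested, none was called higher and 2 lower (1 after adjustment). Among all genes tested, 14.2% were called higher and 12.5% lower. The receptors had a median log2 fold change of -0.57. *Il11ra1*, the receptor of IL-11, had 14.9 and 14.8 FPKM in WT and 6.84 and 5.06 in ADPKD, a change of -1.20 (standard error 0.17, limma adjusted p = 0.00726). *Il27ra*, named because it is the other call, fell by 0.60 on the log2 scale, and this call did not pass after adjustment (limma adjusted p = 0.103). *Il6ra*, the receptor of IL-6, had 5.17 and 9.62 FPKM in WT and 3.77 and 5.41 in ADPKD, and *Cntfr*, the receptor used by CLCF1, had at most 2.22 FPKM in any library.

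Of the other JAK and STAT genes, 7 of 8 were tested, none was called higher and 2 lower in ADPKD against WT, with a median log2 fold change of -0.43. *Stat5a*, which acts downstream of prolactin and growth hormone receptors among others, had 6.48 and 7.59 FPKM in WT and 4.57 and 3.39 in ADPKD, a change of -0.70 (standard error 0.16, limma adjusted p = 0.0284). *Jak3* had 16.7 and 16.5 FPKM in WT and 15.9 and 16.1 in ADPKD. Of 15 inhibitors of JAK-STAT signalling, all tested, 3 were called higher and 1 lower, with a median of -0.16. These counts stand beside the same shares of all genes tested, 14.2% higher and 12.5% lower. *Socs2*, which restrains growth hormone signalling, rose from 3.41 and 2.89 FPKM to 5.76 and 5.58 (log2 fold change 0.69, standard error 0.13, limma adjusted p = 0.0159). *Socs5* fell from 7.05 and 5.97 FPKM to 2.68 and 4.27 (log2 fold change -0.77, standard error 0.20, limma adjusted p = 0.0394), and this call was lost without the first WT library or the first ADPKD library. The other calls among the inhibitors were *Socs6* and *Ptpn6*, higher by 0.72 and 0.60, the latter not after adjustment (limma adjusted p = 0.0876). *Socs1*, the relative closest to *Socs3* in its mode of action, had 10.7 and 8.16 FPKM in WT and 8.50 and 5.52 in ADPKD.

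**Figure D3:**
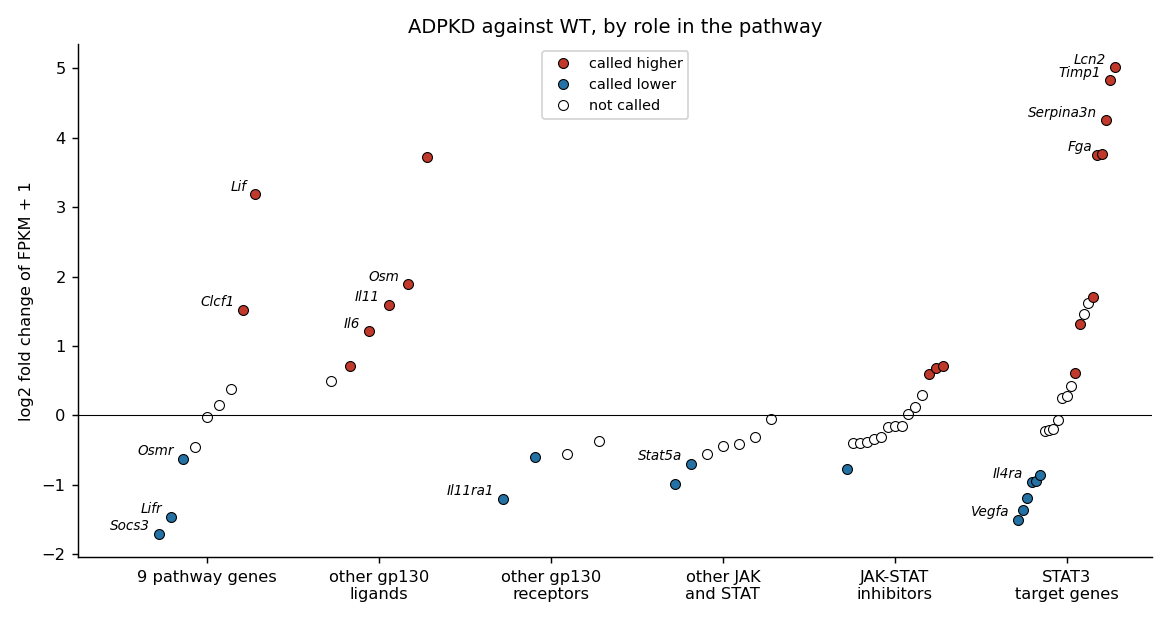
Log2 fold change of FPKM + 1 in ADPKD against WT (y axis) for the tested genes of each list (x axis), ordered by value within a list. Red points were called higher, blue points lower and open points were not called. Among the other gp130 ligands 5 of 6 points are red, and among the other receptors no point lies above 0.

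Genes known from textbooks as STAT3 targets divided in ADPKD. Of 26 listed, 23 were tested, 8 were called higher and 6 lower, with a median log2 fold change of 0.28. Over all genes tested, 14.2% were called higher and 12.5% lower. Among those higher, *Lcn2*, which encodes the iron-carrier protein NGAL, went from 8.94 and 14.2 FPKM in WT to 257 and 610 in ADPKD (log2 fold change 5.02, standard error 0.43, limma adjusted p = 0.0032). *Timp1*, an inhibitor of matrix metalloproteinases, went from 0.516 and 0.982 FPKM to 32.9 and 70.5 (log2 fold change 4.83, standard error 0.38, limma adjusted p = 0.00302). *Serpina3n*, a protease inhibitor, went from 0.856 and 0.501 FPKM to 11.8 and 77.8, with a wide gap between the ADPKD replicates (log2 fold change 4.25, standard error 0.79, limma adjusted p = 0.0152). *Fga*, a fibrinogen chain, went from 0.293 and 0.515 FPKM to 14.3 and 22.5, and the other fibrinogen chains *Fgb* and *Fgg* were higher by 1.71 and 3.76 on the log2 scale. *Myc* and *Birc5*, which act in growth and cell division, were higher by 1.32 and 0.61, the latter not after adjustment (limma adjusted p = 0.0775). The acute phase genes *Lrg1* and *Hp* were not called, although WT and ADPKD did not overlap for either. *Lrg1* had 5.55 and 9.38 FPKM in WT and 11.4 and 50.6 in ADPKD. *Hp* had 0.163 and 0.121 against 0.527 and 5.44, so that both had a wide gap between the ADPKD replicates. Those lower were *Vegfa*, *Steap4*, *Junb*, *Il4ra*, *Pim3* and *Cebpb*, with log2 fold changes between -1.51 and -0.86. *Junb* is itself an immediate early gene and stood at 2432 and 2372 FPKM in WT against 1221 and 910.3 in ADPKD, the direction of the dissociation genes. *Myc* and *Lcn2* were put on the list with their results in these libraries known, so their direction is no independent evidence.

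In ADPKD+MMPP against ADPKD, which shares the ADPKD libraries with the previous comparison, 6 members were lower, 1 was higher and 2 were not called. Over all genes tested, 70.9% were called, 43% lower and 27.9% higher. The libraries did not overlap for 8 of 9 members, and for 87.8% of all genes tested. The median log2 fold change of all genes was -0.36, and quantile normalization moved it to 0.10. The log2 fold changes were -2.06 for *Lif* and -1.06 for *Clcf1* (limma adjusted p = 0.00238 and 0.00954). They were -0.999 for *Il6st* and -1.07 for *Osmr* (limma adjusted p = 0.000422 and 0.00137). *Stat3* and *Jak2* had the largest among the members, at -3.09 and -3.89 (limma adjusted p = 2.78e-05 and 2.09e-05). *Socs3* was higher by 1.12 (limma adjusted p = 0.00386), though not after either centring described next.

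These changes moved with the structure of the genes. For each protein-coding gene, the share of the bases of its main coding transcript that lie in no other annotated transcript was taken from GENCODE vM21. Across 12375 protein-coding genes, which are not independent replicates, the change after MMPP followed this share at a Spearman rho of 0.680, while for ADPKD against WT the rho was 0.0479. Genes with a share above 86.2% had a median change of 1.09 after MMPP, genes with a share from 0.0065% to 0.0969% had -1.81, and the 1590 genes with no unshared base had -1.40. The share was 0.0795% in *Jak2*, 1.35% in *Stat3*, 1.41% in *Clcf1*, 6.28% in *Lif*, 26.6% in *Osmr*, 37.3% in *Il6st*, 59.9% in *Lifr*, 74.9% in *Jak1* and 91.1% in *Socs3*. The 4 members with the lowest shares were all lower after MMPP, and the member with the highest share was the one called higher. This dependence was present only in comparisons with the treated libraries among the 3 made, and cannot be told apart from the treatment.

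**Figure D4:**
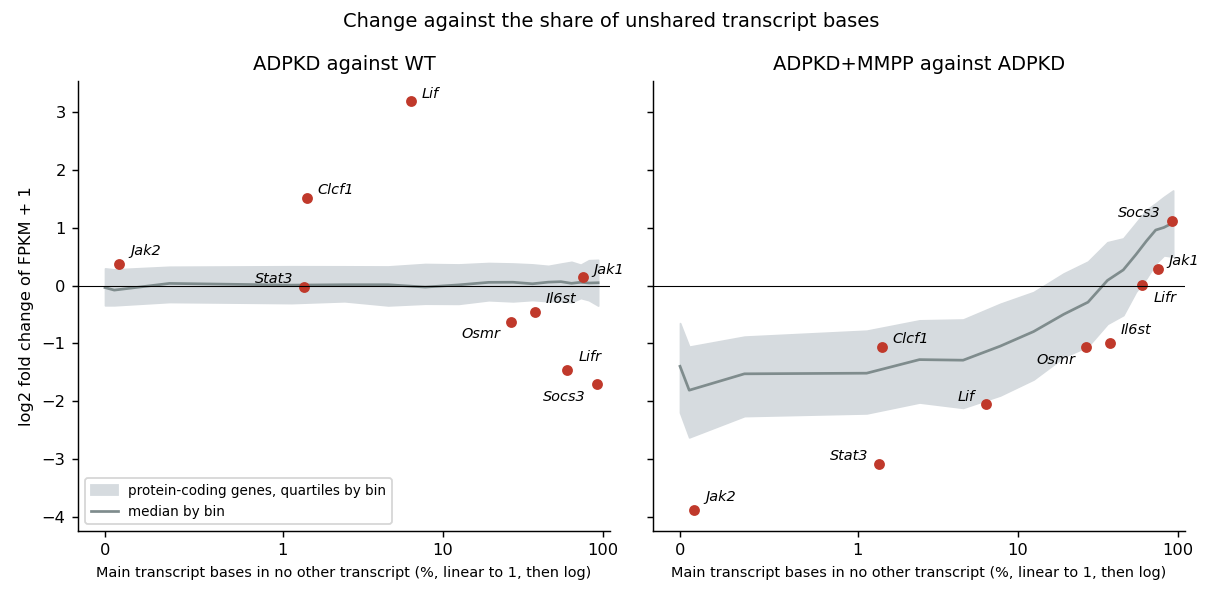
Log2 fold change of FPKM + 1 (y axis) against the share of main transcript bases in no other transcript (x axis in percent, linear up to 1 and logarithmic above) in ADPKD against WT (left) and ADPKD+MMPP against ADPKD (right). The grey line and band are the median and quartiles of protein-coding genes in 17 bins of the share, and red points are the 9 genes. The line is flat near 0 on the left and on the right goes from -1.40 at a share of 0 down to -1.81 in the next bin and up to 1.09 in the last, where *Jak2* and *Stat3* lie farthest below the band, *Lif*, *Osmr*, *Il6st*, *Lifr* and *Jak1* nearer to its lower edge, and *Socs3* on the line.

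Set against genes of similar structure, the members differed from each other in their change after MMPP. *Jak2* had 52 and 56 reads in the ADPKD+MMPP libraries and 4578 and 4544 in the ADPKD libraries. Read numbers are not scaled for depth, which was 11.8 and 10.9 M reads in ADPKD+MMPP and 33.1 and 32.1 M in ADPKD. By group means of FPKM, *Jak2* fell 29.4-fold. The *Jak2* change of -3.89 compares with a median of -1.81 and a lower quartile of -2.63 in its bin of 267 genes. Centred on genes of similar share, *Jak2* was at -1.92, or at -1.78 when the share was taken over all exon bases. *Stat3* had 751 and 718 reads in ADPKD+MMPP and 18951 and 21671 in ADPKD, and its change of -3.09 compares with a median of -1.52 and a lower quartile of -2.21. It was at -1.37 and -2.20 after the respective centrings. *Jak2* and *Stat3* were called lower under both, and no other member was. By main transcript share 6792 of 12375 protein-coding genes were still called, 55.4% of them higher. By exon share 7217 were, 58.1% of them higher. The counts of other lists after centring stand beside these numbers. The bins were not matched for expression level, and the log2(FPKM + 1) scale understates the changes of low genes. *Tyk2*, at a mean of 4.79 FPKM in ADPKD, fell 10.9-fold by group means with a log2 fold change of -2.01. *Stat3* fell 9.65-fold with -3.09, so the distance from genes of similar structure also depends on level.

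The ligands, receptors and *Socs3* depended on the centring after MMPP. *Lif* changed by -0.80 when centred by the main transcript and by -0.12 by exon bases, without a call in either. *Clcf1* changed sign, to 0.65 (called higher) by the main transcript and -0.42 (not called) by exon bases. *Il6st* gave -0.996 and -0.35, and *Osmr* -0.50 and -1.28, each called lower under 1 of the centrings. *Lifr* did not differ as deposited (log2 fold change 0.0025, 95% interval -0.33 to 0.33, limma adjusted p = 0.988) and gave -0.88 (called lower) and 0.35 (not called). *Jak1*, with 0.29 as deposited (95% interval 0.01 to 0.57, limma adjusted p = 0.0594), gave -0.69 (called lower) and -0.52 (not called). *Socs3*, whose change of 1.12 lies at the median of 1.09 of its 1857 genes, gave 0.0012 and 0.014. In ADPKD against WT no call on a member was gained or lost under either centring.

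Of the other lists, 2 of 6 tested ligands were called higher after MMPP and 2 lower, with a median of 0.13 that became -0.47 when centred by the main transcript. *Il6* fell from 44.1 and 90.3 FPKM to 4.46 and 5.06, and *Il11* fell by 0.93 on the log2 scale as deposited. The number of ligands called lower was 1 when either WT library, the second ADPKD library or either treated library was left out, and also under quantile normalization, scaling by a trimmed mean and centring by exon bases. *Osm* rose to 13.2 and 13.0 FPKM and *Ctf1*, which encodes cardiotrophin-1, from 4.08 and 2.09 to 9.75 and 11.9. Among the receptors 3 of 4 were called lower and none higher as deposited, with a median of -0.92, but after either centring none was lower and 2 were higher, with medians of 0.23 by exon bases and 0.76 by the main transcript. *Il11ra1* fell from 6.84 and 5.06 FPKM to 2.54 and 3.16 as deposited.

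The other JAK and STAT genes were called lower in 6 of 7 cases and higher in 1, with a median of -1.58 that shrank to -0.32 by the main transcript and -0.29 by exon bases. After either centring 2 were called lower, and 2 were called higher by the main transcript and 1 by exon bases. *Stat2* went from 22.7 and 15.8 FPKM to 0.972 and 1.27, *Jak3* from 15.9 and 16.1 to 1.30 and 1.66, and *Stat5b* from 6.49 and 6.25 to 1.28 and 1.65. *Stat6*, the STAT of interleukin-4 signalling, rose from 21.9 and 22.04 FPKM to 52.9 and 56.0. Of the 15 inhibitors 12 were called lower and 3 higher, with a median of -1.21 that became 0.044 by the main transcript and -0.14 by exon bases. The counts were then 5 lower and 1 higher by the main transcript and 7 lower and 2 higher by exon bases. The phosphatase genes *Ptpn1* and *Ptpn11* had 1.38 to 2.09 FPKM after MMPP against 20.4 to 25.4 in ADPKD, at shares of 0.997% and 0.217%. *Socs7* fell from 7.02 and 8.66 FPKM to 0.344 and 0.447 at a share of 96.4%, and *Pias2*, of a family that binds STAT proteins, from 13.5 and 12.3 to 2.50 and 3.17 at a share of 16.4%.

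Of the STAT3 targets 8 were called higher and 8 lower after MMPP, with a median of 0.24 that became -0.11 by the main transcript and -0.041 by exon bases. *Myc* fell from 75.5 and 91.5 FPKM to 0.873 and 1.35, *Il4ra* from 46.8 and 54.7 to 3.89 and 3.18, *Bcl2l1*, a survival gene, from 34.8 and 38.1 to 2.51 and 2.72, and *Vegfa* from 65.4 and 57.3 to 10.5 and 10.4. The main transcripts of *Myc*, *Bcl2l1* and *Vegfa* have no unshared base. Among the 8 called higher, *Ccnd1*, *Cebpd*, *Pim3* and *Junb* changed most, by 1.88, 1.83, 1.69 and 1.42 on the log2 scale. Their shares were 76.0%, 88.5%, 78.5% and 100%. *Lcn2*, at 327 and 314 FPKM, was not called against ADPKD. The proximal tubule markers summed to 1562 and 1429 FPKM in ADPKD and 11057 and 10609 in ADPKD+MMPP, where *Gpx3* alone had 8789 and 8321. Of these 13 markers 9 were called higher and 1 lower. Intercalated cell markers summed to 178 and 188 in ADPKD+MMPP (6 of 6 higher). Principal cell markers summed to 9516 and 9642 (6 of 10 higher, 2 lower). Podocyte markers were at 89.5 and 86.9 (2 of 4 lower) and endothelial markers at 325 and 357 (2 of 6 lower). Fibroblast and pericyte markers were at 161 and 170 (2 of 6 higher, 3 lower). Thick limb and distal tubule markers were at 219 and 217 (3 of 5 higher and 1 lower, 2 and 0 after adjustment). The leukocyte and macrophage markers summed to 1065 and 1116 in ADPKD+MMPP, and the dissociation genes to 9595 and 9736. Of the 10 dissociation genes 5 were called higher and 3 lower, with log2 fold changes between -3.04 and 3.16. Of the 10 tested leukocyte and macrophage markers 4 were called higher and 5 lower, *Lyz2* at 568 and 565 FPKM among the former and *Ptprc*, *Adgre1* and *Cd68* among the latter. The part of these genes in the changes of the 9 genes was not tested.

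In ADPKD+MMPP against WT, which shares libraries with both other comparisons, *Lif* was higher (log2 fold change 1.13, limma adjusted p = 0.0243) and 6 members were lower, where 73.9% of all genes tested were called, 30.1% higher and 43.8% lower. The libraries did not overlap for any of the 9 members, and for 91.9% of all genes tested. The members lower than in WT were *Il6st* (-1.45), *Lifr* (-1.45), *Osmr* (-1.69), *Jak2* (-3.51), *Stat3* (-3.11) and *Socs3* (-0.59, limma adjusted p = 0.0423). *Clcf1* at 0.46 (95% interval -0.16 to 1.08, limma adjusted p = 0.136) and *Jak1* at 0.44 were not called. The calls for *Lif* and *Socs3* were lost when any 1 of the 4 libraries compared was left out, with *Lif* between 1.04 and 1.23 and *Socs3* between -0.68 and -0.50. Under either centring *Lif* and *Clcf1* were called higher than in WT and *Il6st*, *Lifr*, *Osmr*, *Jak2*, *Stat3* and *Socs3* lower, and *Jak1* turned to -0.59 by the main transcript (called lower) and -0.39 by exon bases (not called).

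For 3 members the genes most like them over the 6 libraries were sought, by the root mean square distance between log2(FPKM + 1) values each less its mean. Nearest to *Stat3* were *Rab11b-ps2*, a pseudogene by its name, at 0.041, *Kdm2a*, which encodes a histone demethylase, at 0.048, and *Gm10709*, listed at 0 in both treated libraries, at 0.060. Nearest to *Socs3* were *Adcy5*, an adenylyl cyclase gene, at 0.11, *Peg13*, an imprinted non-coding RNA, at 0.13, and *9930111J21Rik2* at 0.13. Nearest to *Clcf1* were *Elf3*, which encodes an epithelial ETS factor, at 0.084, *Tgif1*, a repressor in TGF-beta signalling, at 0.12, and *Mab21l3* at 0.12. *Elf3* had 47.5 and 45.6 FPKM in WT, 118 and 165 in ADPKD, and 69.4 and 63.5 in ADPKD+MMPP, the shape of *Clcf1* at a higher level. These distances are descriptions over 6 libraries that share depth and processing within each group.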

How the data were processed

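The files hold FPKM for 6 libraries, 2 each of WT, ADPKD and ADPKD+MMPP, grouped by their titles. The authors aligned reads to GRCm38/mm10 with HISAT2 2.1.0, counted them with featureCounts 1.6.0 and deposited FPKM per gene symbol. Their annotation release and the step from counts to FPKM are not given in the sources used here, and DESeq2, their test on counts, was not applied to FPKM. Positions, exon lengths and transcript shares came from GENCODE vM21, in which 53186 of the 55367 symbols matched 1 gene. FPKM times exon length gave read numbers and depth, with 98.1% to 98.9% of low values whole within 0.02.

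Genes that reached 1 FPKM in 2 or more libraries entered limma 3.58.1 (R 4.3.3) as log2(FPKM + 1), in 1 fit over the 6 libraries, with a call at a fold of at least 1.5 and an unadjusted P under 0.05. Fold changes on this scale understate those of low genes. The step was tested on simulated data. Alternatives covered the pseudocount, filter, scaling, trend, groups in the fit, replicate block, thresholds, left-out libraries and centring within bins of exon share, and centring by main transcript share was added after seeing the data. The main transcript was the longest coding one among those tagged APPRIS principal. The members and lists were chosen with earlier results of these data known. Named were all members, *Pkd1*, a defining marker of a cell type where one is given, and from each pathway list at most 4 called genes a comparison with no overlap between groups and a group mean of 5 FPKM or more, by size of change, and for *Stat3*, *Socs3* and *Clcf1* the 3 genes with the nearest pattern. Further genes that make up a count or a list were named after their values were seen. Some genes chosen by this rule are counted in their lists but not reported here. Figures were drawn with matplotlib 3.10.9.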

Additional observations from a re-analysis of the deposited data

How the results depend on the processing

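In ADPKD against WT, *Stat3* was at 0.040 when centred by main transcript share and between -0.14 and 0.093 without single libraries, and *Osmr* was between -0.76 and -0.48 without single libraries. In ADPKD+MMPP against ADPKD, centring by exon share and by main transcript share gave -0.12 and -0.80 for *Lif*, -0.42 and 0.65 for *Clcf1*, -0.52 and -0.69 for *Jak1*, and 0.014 and 0.0012 for *Socs3*. *Il6st* was at -0.35 by exon share, and *Osmr* at -0.50 and *Lifr* at -0.88 by main transcript share. A common sum of FPKM put *Lifr* at -0.26 and *Jak1* at -0.016, quantile normalization put *Jak1* at -0.030, scaling by a trimmed mean put it at 0.62, and *Lifr* lay between -0.13 and 0.13 without single libraries. The number of members called higher was 2 with the trimmed mean and 0 by exon share, and the number called lower was 3 by exon share.

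In ADPKD+MMPP against WT, *Lif* was at 0.78 with a common sum and between 1.04 and 1.23 without single libraries. *Clcf1* was at 0.75 with the trimmed mean and at 1.10 and 2.24 by exon and main transcript share, and *Jak1* at 0.74, -0.39 and -0.59. *Socs3* was at -0.59 with a pseudocount of 0.1, at -0.29 with the trimmed mean and between -0.68 and -0.50 without single libraries. The number of members called higher was 0 with a common sum, 3 with the trimmed mean, 2 by either share and between 0 and 1 without single libraries. Medians that changed sign when centred by main transcript share were those of the ligands (-0.47), receptors (0.76), inhibitors (0.044) and STAT3 targets (-0.11) in ADPKD+MMPP against ADPKD and of the receptors (0.37) in ADPKD+MMPP against WT, and by exon share that of the receptors (0.23) in the former. The centrings compare genes of similar transcript structure by construction, and the cause of the other shifts was not tested.

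The labels give replicate numbers but do not say whether these pair libraries across groups. Across genes, the differences between replicates correlated with r of 0.129 between WT and ADPKD. The r was -0.00796 between WT and ADPKD+MMPP and 0.0137 between ADPKD and ADPKD+MMPP. With a single difference per group, a pairing cannot be decided from these values. With the replicate number as a block, the counts of members called in ADPKD against WT were again 2 higher and 3 lower, and no call on a member changed in any comparison. Precision is limited by the 2 libraries per group, and at 10.9 to 11.8 M reads the low *Jak2* values after MMPP rest on 52 and 56 reads.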
